A study of Mus musculus with 20 samples.

Results

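The mitochondrial genome of the mouse is a small circular DNA that carries 37 genes, and all 37 had a row among the 53028 genes of the count table. They were chosen by their symbols, which begin with mt-, and comprise 13 protein-coding genes, 2 ribosomal RNA genes and 22 transfer RNA genes. The table held RNA from the livers of 10 male C57BL/6J mice on standard chow, given 3 intraperitoneal injections of 3 mg/kg of a locked nucleic acid (LNA), a modified antisense oligomer. The labels put their age at 8 weeks when injections began, and the livers were taken 2 days after the last injection. The study's methods give 10 weeks for the polysome mice, without saying at which point. In 5 mice (numbers 1, 2, 3, 8 and 9) the LNA was directed against GFP, a sequence that mice lack, and in the other 5 (numbers 4, 6, 10, 11 and 12) against SNORA73, a small nucleolar RNA that the sample labels write as Snora37. From each liver came 1 library of total RNA (the lysate before fractionation) and 1 of RNA recovered from the polysome part of a sucrose gradient, which gave 4 groups of 5 libraries. All libraries were polyA-selected, and according to the study's methods all mice of the polysome experiment, controls included, received cycloheximide shortly before death. The depth was 20005389 to 42023390 counts in total RNA and 14852951 to 33824659 in polysome RNA. Polysome RNA here is what sedimented with polysomes in that gradient, and no control without polysomes was analysed here.

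Mitochondrial DNA is transcribed from both strands into long precursors, which are cut at the tRNAs into single RNAs. The heavy-strand genes comprise both rRNAs, most tRNAs and all of the mRNAs but one. mt-Nd6, a subunit of complex I of the respiratory chain, is the one mRNA of the other strand. Most mitochondrial mRNAs carry a short poly(A) tail, and mt-Nd6 is generally described as lacking a long one. They are translated on mitochondrial ribosomes inside the organelle, not on the cytosolic ribosomes on which nuclear-encoded mRNAs are read. Hepatocytes are rich in mitochondria, and their summed marker transcripts (Alb, Apoa1, Ttr, Apoc3 and Fgb) stood at 33563 to 69729 CPM (counts scaled to the depth of the library) in every library here, against 109 to 247 CPM for 5 Kupffer cell markers.

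All 13 mRNAs and both rRNAs were measured in every library, and the tRNAs were not well measured. In total RNA the mRNA counts ran from 3306 to 755490 per library and those of the rRNAs from 151325 to 354371. The 22 tRNA genes had 0 to 1696 counts in total RNA and 0 to 233 in polysome RNA, and together took at most 0.00784% of any library. With the study's filter, a CPM above 0.5 in at least 4 libraries, 26 of the 37 genes entered the tests in total RNA, 11 of them tRNAs. In polysome RNA 17 entered, of which only mt-Tn and mt-Ts1 were tRNAs. The 11 genes that did not pass in total RNA were all tRNAs. Transfer RNAs carry no poly(A) tail and are shorter than a read of 100 bases, so their counts are not a measure of mature tRNA.

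The 13 mRNAs took a large part of total RNA and a small part of polysome RNA. Their share of the total RNA library was 9.83%, 11.2%, 10.1%, 13.8% and 11.4% in mice 1, 2, 3, 8 and 9 with GFP LNA. With SNORA73 LNA it was 10.6%, 10.3%, 11.6%, 10.6% and 11.8% in mice 4, 6, 10, 11 and 12. These groups overlapped, with medians of 11.2% and 10.6% and SDs of 1.57 and 0.674 (n = 5). In polysome RNA the share was 2.88%, 2.40%, 2.58%, 1.87% and 2.64% with GFP LNA. With SNORA73 LNA it was 3.39%, 3.60%, 2.08%, 2.27% and 1.68%. Those groups overlapped too, with means of 2.47% ± 0.377 and 2.61% ± 0.845 (SD, n = 5), and every polysome library lay below every total RNA library. Such shares do not tell fewer mitochondria per cell from less RNA per mitochondrion, nor fewer hepatocytes from either.

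The rows were not all independent measurements, because reads of a mitochondrial gene can also match a copy of it elsewhere in the transcriptome. The counts are estimates in which such reads are divided between rows, and a divided count is usually not a whole number. mt-Nd1, mt-Nd4, mt-Nd4l and mt-Rnr1 were whole in all 20 libraries (to within 0.0001), and mt-Nd6, mt-Cytb and mt-Rnr2 were whole or below a whole number by a small fraction of 1 read. mt-Co1, mt-Co2, mt-Nd3 and the overlapping pair mt-Atp8 and mt-Atp6 were whole in none of the 20 libraries, yet became whole in all 20 when summed with particular rows outside the mitochondrial genome. The division mattered for 3 families. For mt-Co1 the outside rows, chiefly Gm29216, held 36.4% to 62.5% of the summed count in total RNA and 36.1% to 53.6% in polysome RNA. For mt-Nd3 the row Gm28438 held 5.51% to 56.8% in total RNA and 21.2% to 78.0% in polysome RNA, so the mt-Nd3 row moved with the division as well as with the RNA. For mt-Atp8 with mt-Atp6 the outside part reached 2.72% in total RNA and 13.6% in polysome RNA. For the other families it was at most 1.16%. Log2 fold changes of mt-Co1, mt-Nd3 and mt-Atp8 with mt-Atp6 are therefore given also for the summed rows.

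**Figure D1:**
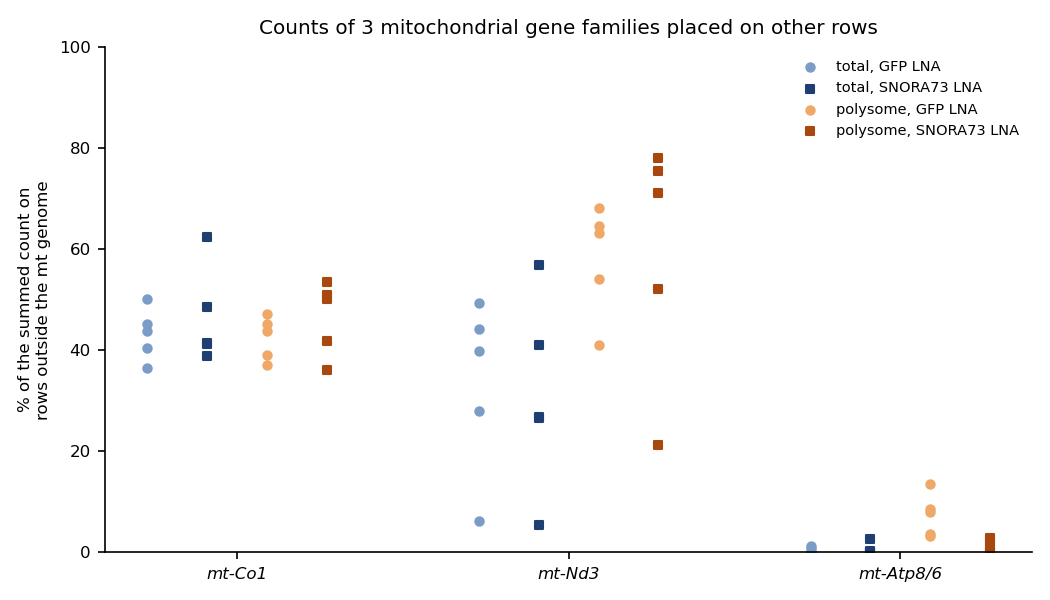
Percentage of the summed count of 3 mitochondrial gene families that the table placed on rows outside the mitochondrial genome; each point is 1 library, by RNA and LNA group. The mt-Nd3 points run from 5.51% to 78.0%, those of mt-Co1 from 36.1% to 62.5%, and those of mt-Atp8 with mt-Atp6 reach 13.6%.

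Per kilobase of gene, mt-Atp6 (of ATP synthase), mt-Co2 and mt-Co3 (of complex IV, cytochrome c oxidase) had the highest levels in total RNA. With GFP LNA these were 26660 ± 4756, 21883 ± 1931 and 19964 ± 1146 CPM per kb (SD, n = 5), each overlapping its neighbour in the order. A gap without overlap separated mt-Co3 from mt-Co1, at 11322 ± 2123 CPM per kb, and mt-Cytb, the cytochrome b of complex III, at 10828 ± 2135. Below them, overlapping from one to the next, came the complex I subunits mt-Nd1 (8147), mt-Nd4 (7664) and mt-Nd2 (5809), then mt-Atp8 (5255) and mt-Nd3 (5093). mt-Nd6 stood apart from both neighbours at 2682 ± 430, and mt-Nd4l (785) and mt-Nd5 (591 CPM per kb) were lowest. The rRNAs mt-Rnr1 and mt-Rnr2, of the small and the large subunit of the mitochondrial ribosome, had 8139 ± 1518 and 4534 ± 886 CPM per kb. Reads aligning to mouse rRNA were removed by the authors before counting, and whether their rRNA set held mitochondrial sequences is not given in the sources used here, so the rRNA levels count only what remained. mt-Co1 is listed without the part on Gm29216.

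**Figure D2:**
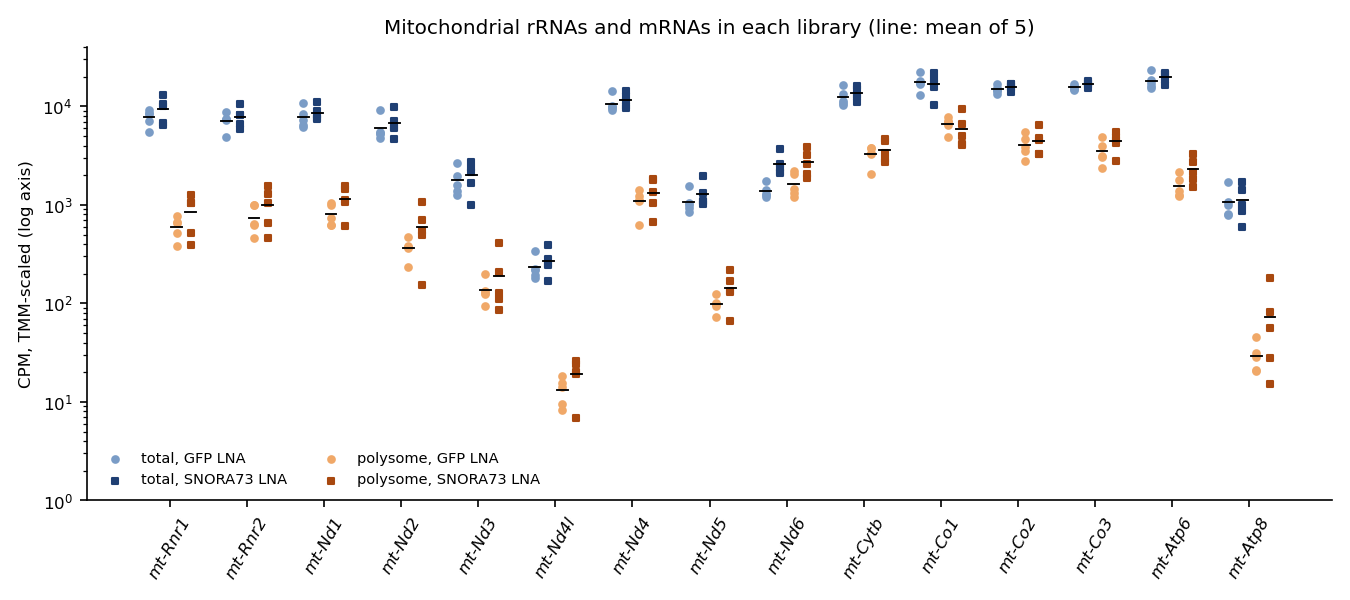
CPM (log axis, TMM-scaled) of the 2 rRNAs and 13 mRNAs of the mitochondrial genome in each of the 20 libraries; points are libraries, coloured by RNA and LNA group, and lines are means of 5. The polysome points lie below the total RNA points for every gene except mt-Nd6, where they overlap.

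Polysome RNA was compared with total RNA of the same livers to see which transcripts were held in the polysome part of the gradient. Mitochondrial transcripts were among the most depleted of all. With GFP LNA, 24 of the 26 members tested were lower in polysome RNA at a false discovery rate (FDR) under 0.05 in edgeR's quasi-likelihood test, and 0 were higher. Of all 13795 genes tested, 42.8% were called in either direction and 21.0% as lower. The median log2 fold change was −3.50 over the members and 0.03 over all genes, and 20 of the 50 genes with the lowest values were members. With SNORA73 LNA, 24 of 26 were again lower and 0 higher, against 38.0% of all genes called and 18.2% lower, with a median of −3.11 over the members and 0.02 over all genes. The members not called in either LNA group were mt-Nd6 and mt-Tn. Of the 11 tRNA rows tested here, only mt-Tn and mt-Ts1 passed the filter in polysome RNA. For the others a lower polysome level was in part selected for. Of the 13 mRNAs, 12 were called lower in each group, with medians of −3.28 and −3.10. With a CPM above 1 in every library, 15 of 16 members were called lower in each group. Then 50.2% and 46.5% of all genes were called in either direction, and 14 of the 50 lowest were members.

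The 12 heavy-strand mRNAs fell in 2 tiers that followed the complexes. Log2 fold changes are given with their standard error (SE). In the upper tier were the 3 subunits of complex IV and cytochrome b. With GFP LNA, the log2 fold change in polysome RNA was −1.40 for mt-Co1 (SE 0.223, adjusted p = 3.90e-05 from edgeR), −1.87 for mt-Co2 (SE 0.181, adjusted p = 1.28e-07), −1.93 for mt-Cytb (SE 0.188, adjusted p = 1.40e-07) and −2.17 for mt-Co3 (SE 0.176, adjusted p = 1.50e-08). As levels, mt-Co1 had 13113, 16938, 17176, 22316 and 17920 CPM in total RNA of mice 1, 2, 3, 8 and 9, and 6470, 7043, 7708, 4923 and 6946 CPM in their polysome RNA. Every polysome value of mt-Co1 was thus below every total RNA value. With its outside rows summed, mt-Co1 stood at −1.41.

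In the lower tier were the 6 heavy-strand subunits of complex I and both subunits of ATP synthase. With GFP LNA, mt-Nd4, the least depleted, had a value of −3.27 (SE 0.257, adjusted p = 1.08e-08 from edgeR), and mt-Nd4l one of −4.15 (SE 0.323, adjusted p = 1.05e-08). Between them stood mt-Nd1 at −3.28, mt-Nd5 at −3.46, mt-Atp6 at −3.54, mt-Nd3 at −3.70 and mt-Nd2 at −4.04, all of which passed the FDR. mt-Atp8 had the lowest value, −5.18 (SE 0.536, adjusted p = 2.73e-07), but mt-Atp8 and mt-Atp6 overlap by 43 bases (MT:7927-7969 in GRCm38.p6) and share reads, and their summed family was at −3.50. The summed family of mt-Nd3 was at −2.95, a 7.75-fold lower level. mt-Nd5, which is taken up again beside mt-Nd6, had 856, 1005, 1052, 1550 and 927 CPM in total RNA of mice 1, 2, 3, 8 and 9 and 124, 98.9, 94.5, 73.2 and 101 CPM in polysome RNA.

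Mouse by mouse, the log2 ratio of polysome to total CPM of all 4 upper-tier genes exceeded that of all 8 lower-tier genes in 9 of the 10 mice. The exception was mouse 6 of the SNORA73 LNA group, where the ratio was −1.29 for the mt-Nd3 row and −1.66 for the lowest of the upper tier. The mt-Nd3 row of that mouse held more of its family than in any other polysome library, and with outside rows summed the tiers were apart in 10 of 10 mice. The tiers were seen in these values and then counted in them. Across the 12 heavy-strand mRNAs, the log2 fold change went with CPM in total RNA (Spearman's rho 0.73 with GFP LNA and 0.83 with SNORA73 LNA). With gene length, rho was 0.60 and 0.48. The CPM was not divided by length here, so it also holds gene length, and these values do not tell level from length. All are descriptions over 12 genes, which share libraries, precursor and base composition.

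**Figure D3:**
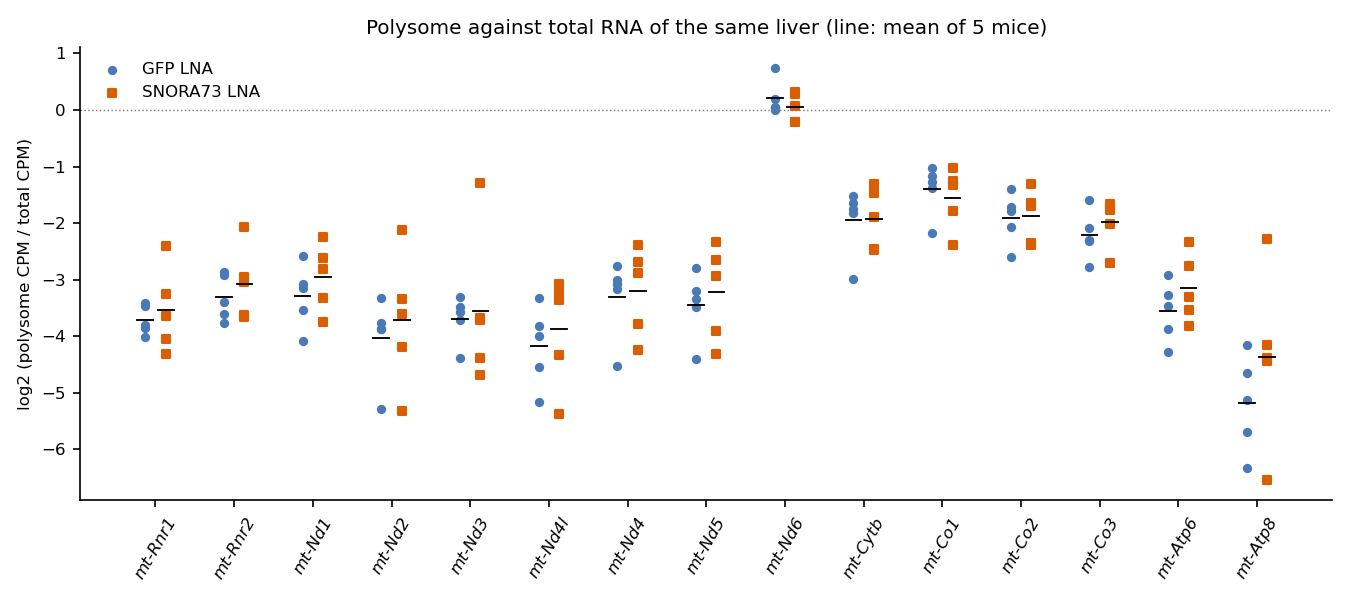
Log2 ratio of CPM in polysome RNA to CPM in total RNA of the same mouse for the 15 mitochondrial rRNAs and mRNAs; points are mice (5 per LNA group), lines are means, and the dotted line marks equal CPM. mt-Nd6 lies around 0 and mt-Cytb, mt-Co1, mt-Co2 and mt-Co3 between −2.99 and −1.02; the means of the others lie lower, with points down to −6.54 for mt-Atp8, but several of their points overlap that range, up to −1.29 for the mt-Nd3 row of 1 mouse.

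With SNORA73 LNA the log2 fold changes of the upper tier were −1.53 (mt-Co1), −1.83 (mt-Co2), −1.90 (mt-Cytb) and −1.94 (mt-Co3). The lower tier ran from −2.90 for mt-Nd1 to −3.95 for mt-Atp8. With outside rows summed, mt-Co1 was at −1.53, mt-Nd3 at −2.63 and mt-Atp8 with mt-Atp6 at −3.13. Without mouse 6, mt-Atp8 stood at −4.71 and mt-Nd3 at −4.06 in place of −3.39, each a shift of more than 1.5-fold. The rRNAs fell as far as the lower tier in both groups. mt-Rnr1 was at −3.69 with GFP LNA (SE 0.304, adjusted p = 1.67e-08 from edgeR) and at −3.45 with SNORA73 LNA (SE 0.300, adjusted p = 6.99e-08). mt-Rnr2 was at −3.27 and −2.97.

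mt-Nd6 was the one mRNA not lower in polysome RNA. It is the light-strand complex I gene (ENSMUSG00000064368, MT:13552-14070 in GRCm38.p6), and it overlaps the end of mt-Nd5 on the other strand (MT:11742-13565) by 14 bases. In mice 1, 2, 3, 8 and 9 with GFP LNA it had 1302, 1268, 1206, 1417 and 1766 CPM in total RNA and 2182, 1314, 1209, 1454 and 2034 CPM in polysome RNA. In mice 4, 6, 10, 11 and 12 with SNORA73 LNA it had 2589, 2123, 2354, 3683 and 2160 CPM in total RNA and 3202, 2571, 2039, 3878 and 1864 CPM in polysome RNA. In mouse 11 the rounded count of mt-Nd6 was 72061 in both libraries. Equal counts of 100 or more in both libraries of a mouse were found for 9 to 31 genes per mouse, with 28 in mouse 11. Total and polysome values of mt-Nd6 overlapped in both groups. From edgeR, the difference on the log2 scale was 0.24 with GFP LNA (SE 0.209, adjusted p = 0.386) and 0.07 with SNORA73 LNA (SE 0.209, adjusted p = 0.825). With the mouse as a replicate block it was 0.21 (SE 0.109, adjusted p = 0.121 from edgeR) and 0.05 (SE 0.109, adjusted p = 0.745). In 10 of 10 mice its ratio of polysome to total CPM was the highest of the 13 mRNAs, from −0.21 to 0.75 on the log2 scale.

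mt-Nd6 thus made up a different part of the mitochondrial mRNA in the 2 kinds of library. Its count was 1.05% to 1.64% of the summed count of the other 12 mRNAs in total RNA with GFP LNA, and 5.43% to 9.17% in polysome RNA. With SNORA73 LNA it was 1.72% to 3.53% in total RNA and 7.94% to 18.0% in polysome RNA. Against its neighbour mt-Nd5, the counts of mt-Nd6 were 1.35 ± 0.380 times as many in total RNA and 16.7 ± 3.52 times as many in polysome RNA with GFP LNA (SD, n = 5), and 2.17 ± 0.912 and 20.7 ± 7.56 times with SNORA73 LNA. Per length, mt-Nd6 was 11th of the 13 mRNAs in total RNA of both LNA groups, and 4th and 3rd in polysome RNA with GFP and SNORA73 LNA. The libraries were made strand-specific, but the sources used here do not say that kallisto was run with strand, so reads of opposite-strand RNA across mt-Nd6 cannot be told apart from mt-Nd6 itself. The library preparation selects for poly(A), and the share of mt-Nd6 molecules that it captures was not measured.

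**Figure D4:**
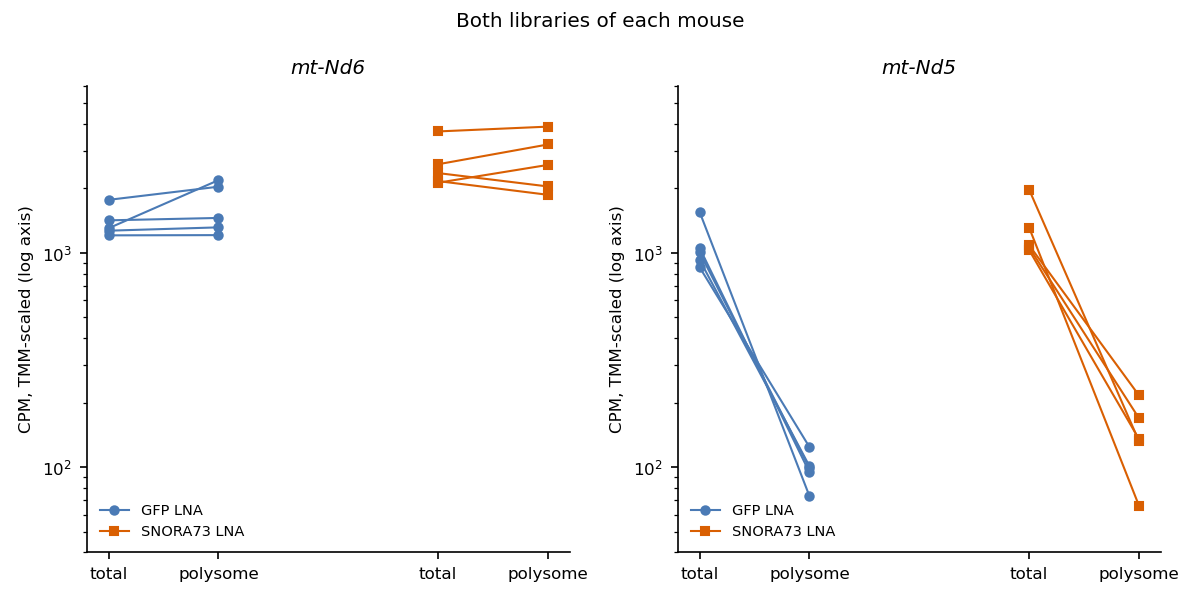
CPM (log axis, TMM-scaled) of mt-Nd6 and of its overlapping neighbour mt-Nd5 in total and polysome RNA; each line joins both libraries of 1 mouse, 5 mice per LNA group. The mt-Nd6 lines stay between 1206 and 3878 CPM, and the mt-Nd5 lines drop from at least 856 to at most 216 CPM.

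The SNORA73 LNA was compared with the GFP LNA in total RNA to see whether loss of the snoRNA altered the amount of mitochondrial transcripts. The mature targets were out of reach of these libraries, with at most 4 counts for Snora73a or Snora73b in any library, so the knockdown itself was not measurable here. Over all 10 mice, 0 of the 26 members passed the FDR in edgeR's quasi-likelihood test, where 0.0303% of the 13195 genes tested did. With limma-voom 0 members passed, where 0.0379% of all genes did. With DESeq2 2 passed, mt-Nd6 and mt-Ts1, where 0.515% of all genes did. An unadjusted p under 0.05 was found for 2 members, mt-Nd6 and mt-Ts1, against 8.65% of all genes. The median log2 fold change was 0.10 over the members and 0.01 over all genes. Without mouse 10 the members' median was −0.03, and 6 had an unadjusted p under 0.05.

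mt-Nd6 had the largest difference of the 13 mRNAs and 2 rRNAs in total RNA, with TMM, with library totals and over 8 mice. The tRNA row mt-Tg was nearly as far from 0 with TMM (−0.87), and was farther with library totals (−1.02) and over 8 mice (−1.05), as was mt-Tq over 8 mice (−1.24). As the values above show, the lowest of the 5 livers with SNORA73 LNA (2123 CPM) exceeded the highest with GFP LNA (1766 CPM), and 1.80% of all genes tested separated in this way. In edgeR the difference was 0.89 on the log2 scale (SE 0.167, adjusted p = 0.184). Over the 8 mice that the study is inferred to have used (without mice 9 and 10), the value was 1.02 (SE 0.167, adjusted p = 0.0249 from edgeR), when 0.745% of all genes were called. The study chose the mice to leave out by their expression. Such a choice can narrow the groups, so this pass is not independent of it. mt-Nd6 also passed without mouse 9 alone, at 0.98 (adjusted p = 0.0334 from edgeR), and with no other single mouse left out. The lowest of those values was 0.72, without mouse 11 (adjusted p = 0.287 from edgeR). The other 12 mRNAs lay between −0.06 (mt-Co1) and 0.26 (mt-Nd5), with standard errors of 0.0964 to 0.279, and none had an unadjusted p under 0.05. With summed outside rows mt-Co1 was at 0.02, mt-Nd3 at 0.11 and mt-Atp8 with mt-Atp6 at 0.13.

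**Figure D5:**
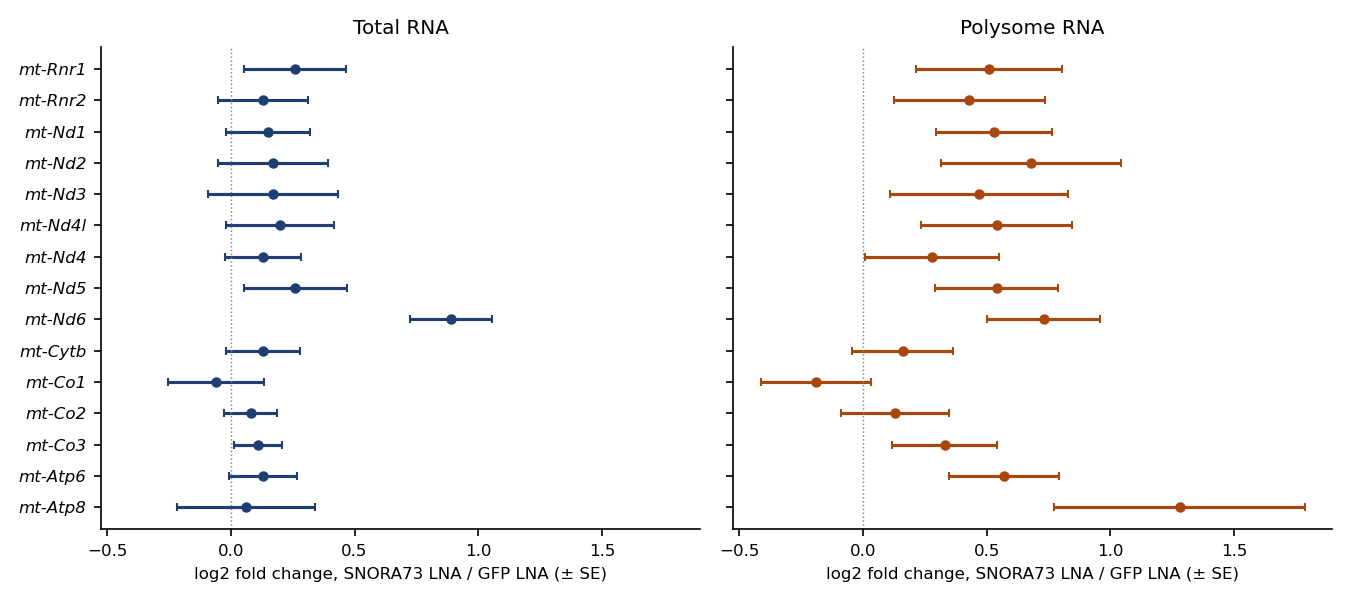
Log2 fold change of SNORA73 LNA over GFP LNA, with its standard error from edgeR, for 15 mitochondrial rRNAs and mRNAs in total RNA and in polysome RNA (10 mice each). mt-Nd6 stands apart in total RNA at 0.89; in polysome RNA the values run from −0.19 for mt-Co1 to 1.28 for mt-Atp8, and no value in either panel passed the FDR.

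The scaling of the libraries bears on the signs of these small differences. With TMM, 12 of 13 mRNAs and both rRNAs were higher with SNORA73 LNA in total RNA. With library totals in place of TMM, the median of all genes moved from 0.01 to −0.14, and 5 of 13 mRNAs and 1 of 2 rRNAs were higher. mt-Nd6 then stood at 0.75 (adjusted p = 0.154 from edgeR). mt-Nd6 was above the other mRNAs under both scalings.

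In polysome RNA 0 of the 17 members tested passed the FDR with SNORA73 against GFP LNA, where 0.0153% of the 13060 genes tested did. With limma-voom or DESeq2 0 members passed, where 0.0153% and 2.16% of all genes did. All but mt-Co1 had values above 0, and the median was 0.51 on the log2 scale over the members and −0.01 over all genes. Scaling by library totals moved the median of all genes to −0.17 and that of the members to 0.38, and mt-Co2 (−0.01) then joined mt-Co1 (−0.32) below 0. With each mouse left out the members' median ran from 0.30 (without mouse 6) to 0.69 (without mouse 12). An unadjusted p under 0.05 was found for 5 members (1 without mouse 2 or mouse 8, and 10 without mouse 12), against 13.4% of all genes: mt-Nd6 (0.73, adjusted p = 0.218 from edgeR), mt-Atp8 (1.28, adjusted p = 0.303), mt-Atp6 (0.57, adjusted p = 0.297), mt-Nd1 (0.53, adjusted p = 0.355) and mt-Nd5 (0.54, adjusted p = 0.364). Without mouse 11 mt-Nd6 was at 0.57 (adjusted p = 0.353 from edgeR). The members share precursors and an organelle, so they are not independent measurements.

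The polysome libraries of the SNORA73 LNA group differed widely among themselves. mt-Atp8 had 45.7, 20.6, 28.7, 21.1 and 31.2 CPM in mice 1, 2, 3, 8 and 9, and 56.1, 181, 81.1, 27.7 and 15.2 CPM in mice 4, 6, 10, 11 and 12. The highest and the lowest value of all 10 mice were thus both in the SNORA73 LNA group, in mice 6 and 12. Without mouse 6 its log2 fold change was 0.61 in place of 1.28, and that of the mt-Nd3 row was −0.02 in place of 0.47. With mt-Atp6 and the outside rows summed, it was 0.49 (SE 0.221, adjusted p = 0.361 from edgeR), and summed mt-Nd3 and mt-Co1 were at 0.43 and −0.11. mt-Nd1 had 1034, 629, 739, 626 and 988 CPM with GFP LNA and 1440, 1550, 1118, 1081 and 607 CPM with SNORA73 LNA. There 4 of 5 mice with SNORA73 LNA lay above all with GFP LNA, and mouse 12 lay below them all. In each of these genes the groups overlapped, as they did for all 17 members, while 3.20% of all genes tested had groups that did not overlap.

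RNAs of other compartments and cell types also differed between these libraries. The summed level of 4 nuclear-retained RNAs (Malat1, Neat1, Meg3 and Kcnq1ot1) was 109 to 177 CPM in polysome RNA with GFP LNA. With SNORA73 LNA it was 236 to 1419 CPM, highest in mouse 11 and lowest in mouse 6. mt-Nd6 in polysome RNA was also highest in mouse 11, but lowest of that group in mouse 12 (1864 CPM, against 2571 in mouse 6). In total RNA the summed level was 467 to 653 CPM and 430 to 1091 CPM. Malat1 made up most of it, with means of 105 and 511 CPM in polysome RNA. Neat1 was not higher with SNORA73 LNA, with means of 31.2 and 28.8 CPM in polysome RNA and 75.6 and 47.1 in total RNA. Meg3 and Kcnq1ot1 had group means of at most 3.98 CPM. The summed level of 5 RNAs without a poly(A) tail, chiefly the signal recognition particle RNAs Rn7s1 and Rn7s2, varied more within the groups, from 1.10 to 348 CPM in polysome RNA with GFP LNA and from 8.11 to 97.7 CPM with SNORA73 LNA. Replication-dependent histone mRNAs, which end in a stem-loop and lack a poly(A) tail, had 359 to 425 and 384 to 592 CPM in polysome RNA. In total RNA they had 232 to 278 CPM with GFP LNA and 265 to 365 with SNORA73 LNA. The summed level of 5 sinusoidal endothelial markers was 77.3 to 89.4 CPM in polysome RNA with GFP LNA and 95.5 to 108 CPM with SNORA73 LNA, again without overlap, and 94.6 to 119 and 117 to 129 CPM in total RNA. For the marker sums of hepatocytes, Kupffer cells, stellate cells, red blood cells and cholangiocytes the LNA groups overlapped in both RNAs. The part that nuclear, tail-less or endothelial RNA has in the mitochondrial values was not tested.

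The interaction term of the model over all 20 libraries asked whether the ratio of polysome to total RNA differed between the LNA groups. For 0 of 26 members it did at an FDR under 0.05, and 0.00725% of all genes were called. Over the members the median was 0.31 on the log2 scale, with 21 above 0 and 5 below, and over all genes −0.01. Without mouse 6 the members' median was 0.03, with 14 above 0 and 12 below. The term of mt-Nd6 was −0.17 (SE 0.296, adjusted p = 1 from edgeR). Among the other 14 rRNAs and mRNAs it ran from −0.12 for mt-Co1 to 1.23 for mt-Atp8 (SE 0.638, unadjusted p = 0.0672). Without mouse 6 mt-Atp8 was at 0.48, and mt-Nd3 at −0.36 in place of 0.31. With outside rows summed, mt-Atp8 with mt-Atp6 was at 0.37, mt-Nd3 at 0.32 and mt-Co1 at −0.12, and the highest mRNA was mt-Nd2 at 0.52. An unadjusted p under 0.05 was found only for the tRNA rows mt-Ti and mt-Ts1 (for 0 members without mouse 6, and 6 without mouse 1).

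Of the tRNA rows, mt-Ts1 (the serine tRNA next to mt-Co1, on the opposite strand) had the most counts. In total RNA it had 50.7, 42.0, 24.2, 34.7 and 41.1 CPM in mice 1, 2, 3, 8 and 9 and 18.5, 25.8, 23.5, 29.9 and 19.3 CPM in mice 4, 6, 10, 11 and 12. Of the 11 tRNA rows tested in total RNA, 9 were lower with SNORA73 LNA (10 with library totals and 11 over 8 mice), and none passed the FDR in edgeR. The mt-Ts1 values of both groups overlapped, at −0.72 on the log2 scale (SE 0.189, adjusted p = 0.323 from edgeR). In polysome against total RNA it was at −3.15 with GFP LNA (SE 0.373, adjusted p = 1.31e-06 from edgeR) and −1.87 with SNORA73 LNA (SE 0.359, adjusted p = 3.41e-04). mt-Tn, the other tRNA row tested in polysome RNA, had at most 69 counts in any library and was not called in any comparison. mt-Tg had 46 counts over the 5 total RNA libraries with SNORA73 LNA and 0 over the 5 polysome libraries. Against a floor of 3 counts over the group, this was at least 12.5-fold lower. mt-Tg and the tRNA rows named below passed the filter through total RNA only, so a lower polysome level was in part selected for. For mt-Tw, with at most 33 counts, the lower polysome level with SNORA73 LNA did not pass without mouse 6 (adjusted p = 0.0645 from edgeR) or without mouse 11 (adjusted p = 0.0626). Several other tRNA rows moved by more than 1.5-fold when 1 mouse was left out. Under GFP LNA these were mt-Tq, mt-Tw, mt-Tc and mt-Te without mouse 1 (mt-Tc from −4.63 to −5.86) and mt-Tg without mouse 3. Under SNORA73 LNA they were mt-Ti, mt-Tq and mt-Te without mouse 6, mt-Tw without mouse 4, and mt-Te without mouse 10.

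Nuclear genes that transcribe, process and translate the mitochondrial genome were looked at for comparison, and none passed the test with the LNA. Of 57 listed genes 56 were tested, and 0 passed the FDR in total RNA, in polysome RNA or in the interaction (also over 8 mice), with medians of 0.02, −0.09 and −0.07 on the log2 scale. An unadjusted p under 0.05 was found for 1 of them in total RNA and 3 in polysome RNA. In total RNA Polrmt, the mitochondrial RNA polymerase, had a log2 fold change of 0.11 (SE 0.135) and Tfam, which packages the DNA and starts transcription, −0.08 (SE 0.0921). Lrpprc and Slirp, whose complex stabilises mitochondrial mRNAs, had 0.04 (SE 0.0953) and −0.12 (SE 0.0818), and Grsf1, a protein of mitochondrial RNA granules, −0.10 (SE 0.0879).

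The mRNAs of these nuclear genes, which are read on cytosolic ribosomes, had medians near that of all genes in polysome against total RNA. With GFP LNA 18 of 56 were called higher and 5 lower in polysome RNA (median 0.16). With SNORA73 LNA 16 were called higher and 6 lower (median 0.13). In either direction, the share called was near the 42.8% and 38.0% of all genes. The calls in the list leaned upward, while those of all 13795 genes were more even. With GFP LNA 3011 of all genes were called higher and 2898 lower, and with SNORA73 LNA 2723 and 2515. Slirp rose by 1.33 on the log2 scale with GFP LNA (SE 0.0951, adjusted p = 4.69e-09 from edgeR) and by 1.34 with SNORA73 LNA, and Grsf1 was at −0.35 and −0.36, both called. By role, 4 of 7 DNA replication genes (Top1mt, Rnaseh1, Twnk and Ssbp1, named after their values were seen) were called higher in both groups, with list medians of 0.54 and 0.62, while the 10 transcription genes had medians of −0.03 and −0.05. The 18 genes of RNA stability and decay were split, with 5 called higher and 4 lower with GFP LNA and 3 higher and 5 lower with SNORA73 LNA. The lowest value of the 56 was −0.87, above that of every heavy-strand mitochondrial mRNA.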

How the data were processed

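Liver total and polysome RNA of 10 mice was sequenced as 100-base paired, polyA-selected, strand-specific libraries. The authors trimmed reads with fastp (Phred 15 or more), removed reads aligning to mouse rRNA with bowtie, and deposited estimated counts (the expected counts of kallisto, summed per gene) made against Ensembl 102 (GRCm38). Counts were rounded to whole numbers here. Members were matched by symbol, and positions are those of RefSeq GRCm38.p6 (37 of 37 matched). The paper's filter (CPM over 0.5 in 4 or more of the libraries compared) was kept, and the genes left were tested with edgeR 4.0.16 (TMM, quasi-likelihood F test, Benjamini-Hochberg FDR under 0.05, either direction). Each LNA comparison used its own 10 libraries. Polysome against total RNA and the interaction used 1 fit of all 20. Standard errors are the log2 fold change divided by the root of F. Printed CPM were scaled by TMM factors over all 20 libraries. Methods of the paper name limma-voom, which was run as an alternative with DESeq2 1.42.0 and other scalings and filters. The scripts were checked on simulated counts.

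Mouse numbers join the total and the polysome library of the same liver. The 2 libraries of a mouse deviated from their group means together, with a correlation of 0.126 to 0.579 over genes in the 10 mice. The mouse block changed no member's call. The paper used 4 mice per group and does not name those left out. Its reporting summary says that a mouse was dropped from each group for not clustering with the rest in a principal component analysis. Of 25 choices, its own table was matched best without mouse 9 (GFP LNA) and mouse 10 (SNORA73 LNA), and the 8 remaining mice are an alternative. All protein, rRNA and tRNA members are described. Nuclear genes named by a rule set beforehand are those that passed in an LNA comparison (there were 0), Polrmt, Tfam, Lrpprc, Slirp and Grsf1. Top1mt, Rnaseh1, Twnk and Ssbp1 were named besides, after their values were seen. The members and lists were chosen with earlier results of these data known. The labels name no batch. No genome sequence was used.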

Additional observations from a re-analysis of the deposited data

Results flagged for a closer look

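A library far from the other 4 of its group was found in 4 of 68 groups of values, near the 1 in 20 that chance gives. In total RNA with GFP LNA, mouse 8 had 9243 CPM of mt-Nd2, against 4752 to 5501 in the others, and 14222 CPM of mt-Nd4, against 9151 to 10007. In polysome RNA the same mouse had 2048 CPM of mt-Cytb, against 3280 to 3765. In polysome RNA with SNORA73 LNA, mouse 12 had 6.80 CPM of mt-Nd4l, against 19.2 to 25.9.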

How the results depend on the processing

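Of 1490 repeated log2 fold changes of the mRNAs and rRNAs, 1450 kept their direction and their side of the threshold, 36 changed sign without a call on either side, and 4 gained a call, all for mt-Nd6 in total RNA. The members called with SNORA73 LNA in total RNA numbered 0, against 1 without a filter, 1 over 8 mice and 2 with DESeq2 (mt-Nd6 higher, adjusted p = 2.99e-04 from DESeq2, and mt-Ts1 lower, adjusted p = 0.0496), and 0 to 1 with each mouse left out. For mt-Nd6 the adjusted p ran from 2.99e-04 to 0.475 over the alternatives. In polysome RNA and in the interaction 0 members were called under every alternative run, and for mt-Nd6 in polysome RNA the lowest adjusted p was 0.0542 (DESeq2). Requiring a CPM above 1 in every library left 16 members tested for polysome against total RNA, of which 15 were called in each LNA group. The replicate block (mouse) left 24 of 26 called in both groups, and raised the calls over all genes from 5909 to 7738 with GFP LNA and from 5238 to 7048 with SNORA73 LNA. Calls over all genes differed by more than 1.5 times in total RNA (4, against 2 with library totals, 13 without a filter, 2 with the stricter filter, 68 with DESeq2, 97 over 8 mice and 1 to 59 with a mouse left out, highest without mouse 9) and in polysome RNA (2, against 0 with library totals, 72 without a filter, 31 with the stricter filter, 282 with DESeq2, 31 over 8 mice, 317 in 1 fit of all libraries and 0 to 17 with a mouse left out, highest without mouse 9). In the interaction they were 1, against 7 with DESeq2, 2 without mouse 12, and 0 with limma-voom, over 8 mice or with the stricter filter. The share of the 13 mRNAs moved when the denominator left out the 20 genes with most counts, to 14.2% and 14.3% in total RNA and 3.21% in polysome RNA with GFP LNA. With the shared rows added, an alternative chosen after seeing the data like all summed rows and the ratio to mt-Nd5, it was 12.4% in total RNA with SNORA73 LNA and 3.03% in polysome RNA with GFP LNA.

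With 5 mice per group, the standard errors of the LNA comparisons were near 0.2 or above for most mRNAs. Differences of that size were not detectable, and some far larger ones were not called. In total RNA mt-Nd6 was at 0.89 (SE 0.167, adjusted p = 0.184 from edgeR). In simulated counts with changes of 1 on the log2 scale, 80.8% of the changed genes were called in total RNA. In polysome RNA 48.7% were called, and in the interaction 21.7%. The simulated counts had a common spread for genes of like level, and their libraries varied independently. The spread of single genes and deviations shared across a mouse were left out, so these shares do not give the power for the members. mt-Nd6 rests on its poly(A) capture and on unstated strand use, mt-Co1 and mt-Nd3 on how reads were divided with other rows, and tRNA rows on few counts.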
